A study of Mus musculus with 12 samples.

Results

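RNA-sequencing libraries of mouse samples labelled as lacking both Scl and Lyl1 were compared with libraries labelled wild type. The comparison used the 3 libraries titled as the double knockout (double KO) and the 3 titled as wild type, 6 of the 12 libraries in the series, and it covered all genes. Per the labels, each library was made from pooled whole embryos at embryonic day 9.5. The other 6 libraries were 3 of a Lyl1 KO and 3 of an Scl KO, which are used here to show where the double KO differs from a single loss. The series asks what Lyl1 does in primitive erythropoiesis, the first wave of red cell production. Wild type carries neither KO, each single KO carries 1 of them, and the double KO carries both. The labels give no strain, allele, promoter, litter or number of embryos in a pool. The labels call the replicates biological without naming a litter for each, and the p-values therefore reflect variation among these pools alone.

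Scl, whose gene symbol is Tal1, and Lyl1 are closely related basic helix-loop-helix transcription factors. Each pairs with an E protein such as Tcf3 and binds E-box sequences, often beside a GATA factor, with Lmo2 and Ldb1 holding the complex together. Scl is required for blood formation in the embryo and later for megakaryocytes, the cells that release platelets, and for red cells. Lyl1 is expressed in many of the same cells and is known for the upkeep of blood stem and progenitor cells.

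The libraries held 24324685 to 28694888 counts in these 2 groups, and 15399 genes had enough counts to test. Levels are given as CPM, the usual depth-scaled counts, with TMM factors, and each group has n = 3. The TMM factors differed between the groups, at 0.894 to 0.957 in wild type and 1.14 to 1.30 in the double KO, and the 10 most abundant genes took 9.78% to 10.5% of counts in wild type and 5.28% to 7.10% in the double KO. Transcripts of megakaryocytes and platelets led these libraries: the gene with the most counts was Thbs1 in every wild-type library and Itgb3 in every double KO library. Few heart, neural or tail bud markers were seen in the wild-type and double KO libraries. In at least 1 of these libraries, 8 of 22 heart muscle genes and 5 of 26 neural genes reached 1 CPM. The same held for 4 of 20 tail bud and early skeletal muscle genes. Markers of primitive red cells were low as well, with 6 counts of Klf1 and 5 counts of Alas2 in the 3 wild-type libraries together. Endothelial, fibroblast and macrophage markers were seen more widely: 37 of 40, 15 of 20 and 33 of 33 genes reached 1 CPM in at least 1 of these libraries. The low heart, neural, tail bud and primitive red cell markers go against a reading of these libraries as whole embryos. The libraries are called by their labelled genotype only. Double KO 1 and 2 had Y-linked transcripts (Eif2s3y at 82.2 and 97.7 CPM) and at most 0.598 CPM of Xist, the RNA that coats the inactive X chromosome. Double KO 3 and the 3 wild-type libraries had 567 to 740 CPM of Xist and at most 0.0416 CPM of each Y-linked gene listed. In bulk RNA, fewer cells of a type and less RNA per cell cannot be told apart.

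Both targeted genes were lower in the double KO, and neither was absent. Tal1 (ENSMUSG00000028717, chromosome 4, 115056426 to 115071755, GRCm38) stood at 559, 643 and 513 CPM in wild type 1, 2 and 3 and at 100, 100 and 77.7 CPM in double KO 1, 2 and 3. The groups did not overlap, 16.2% of the wild-type level remained, and Tal1 fell by 2.62 ± 0.15 on the log2 scale (standard error, SE; edgeR's quasi-likelihood test, Benjamini-Hochberg adjusted p = 3.96e-07). Lyl1 (ENSMUSG00000034041, chromosome 8, 84701457 to 84704715) was at 203, 192 and 149 CPM in the wild-type libraries against 88.3, 108 and 56.5 CPM in the double KO libraries. Every double KO library was under every wild-type library, and Lyl1 fell by 1.10 ± 0.24 (adjusted p = 0.00413) to 46.5% of wild type. Which exons gave these reads is not visible in a table of counts per gene.

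Over all 15399 genes, 5312 (34.5%) passed an adjusted p of 0.05 and are called here. Of these, 2532 (16.4% of all tested) were higher and 2780 (18.1%) lower in the double KO, and the median log2 fold change over all genes tested was 0.04. The larger changes leaned towards loss: 1469 called genes were lower and 958 higher by more than 2-fold, and 249 were lower and 192 higher by more than 8-fold. Libraries of the 2 groups did not overlap for 6544 of the genes tested (42.5%) and for 5016 of the called genes. Called genes were spread over the genome. Within 10 Mb of Lyl1, 26 of 146 genes were called higher and 32 lower (39.7% in all), and within 10 Mb of Tal1, 28 of 172 higher and 31 lower (34.3%).

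**Figure D1:**
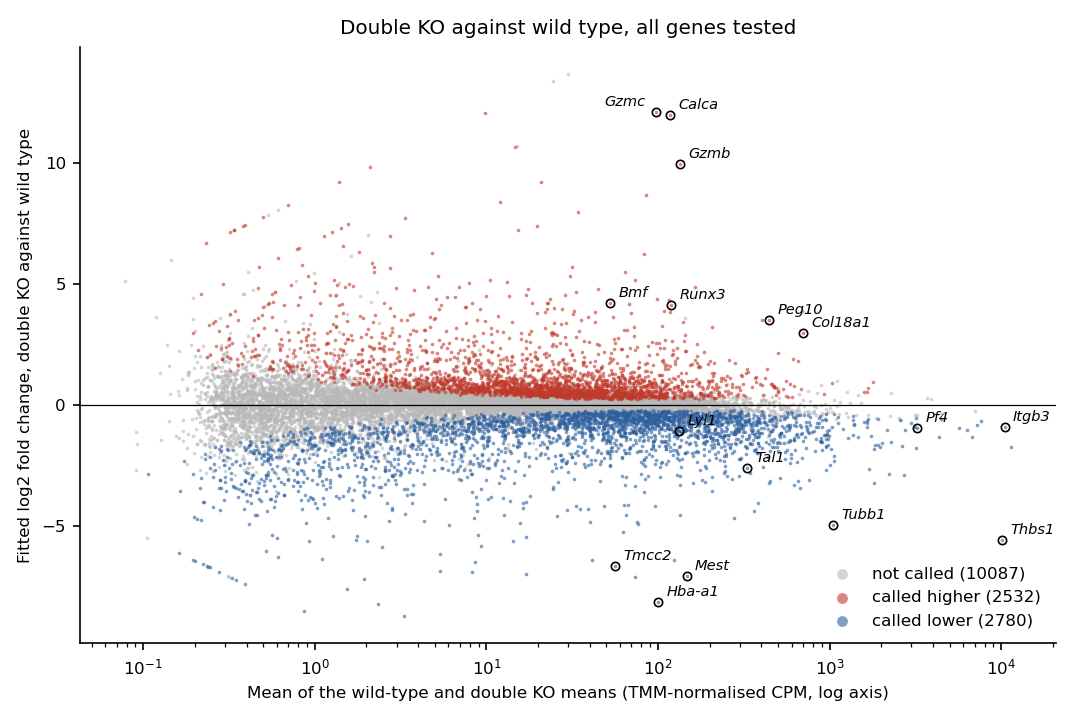
Fitted log2 fold change in the double KO against wild type (vertical axis) for each of the 15399 genes tested (points), against the mean of the 2 group means in TMM-normalised CPM (horizontal log axis). Called genes are red where higher (2532) and blue where lower (2780), other genes are grey, and genes named in the text are circled. At the right of the plot the fall of Thbs1 stands apart, and fitted values of genes with almost no counts in 1 group depend on the prior count of the fit.

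The regulatory letters near gene starts are shown for 8 of the changed genes, since members of the Scl complex bind an E-box next to a GATA site. The first 4 fell (Tmcc2, a transmembrane coiled-coil protein gene, Epor, the erythropoietin receptor, F2rl2, a thrombin receptor subunit, and Tal1 itself) and the last 4 rose (Atp2b4, a calcium pump, Spns2, a sphingosine phosphate transporter, Calca, the calcitonin gene, and Gzmb, a granzyme). They were chosen after their values were seen, among genes with a match and a change of more than 4-fold. Each line gives the 250 bases before a RefSeq start, 5′ to 3′ on the gene's strand (GRCm38.p6), with matches to the E-box CAGATG or the GATA site AGATAA on either strand in capitals. Tmcc2 has 3 such windows and Tal1 has 2, and only the window with a match is shown for each. The Tmcc2 window shown lies inside the span of the gene, not before its outermost start. For Tmcc2, Epor and Gzmb, the bases tried just after the start were not found in an annotated transcript of the gene. Tmcc2 lies on the minus strand at chr1:132367949-132368198, Epor on the minus strand at chr9:21963577-21963826, F2rl2 on the plus strand at chr13:95696670-95696919, Tal1 on the plus strand at chr4:115056176-115056425, Atp2b4 on the minus strand at chr1:133753748-133753997, Spns2 on the minus strand at chr11:72475028-72475277, Calca on the minus strand at chr7:114636358-114636607 and Gzmb on the minus strand at chr14:56262335-56262584.
Tmcc2: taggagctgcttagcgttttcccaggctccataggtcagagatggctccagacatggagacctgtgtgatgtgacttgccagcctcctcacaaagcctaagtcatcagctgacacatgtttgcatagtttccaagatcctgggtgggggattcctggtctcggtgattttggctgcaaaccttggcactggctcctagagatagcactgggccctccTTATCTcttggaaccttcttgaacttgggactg
Epor: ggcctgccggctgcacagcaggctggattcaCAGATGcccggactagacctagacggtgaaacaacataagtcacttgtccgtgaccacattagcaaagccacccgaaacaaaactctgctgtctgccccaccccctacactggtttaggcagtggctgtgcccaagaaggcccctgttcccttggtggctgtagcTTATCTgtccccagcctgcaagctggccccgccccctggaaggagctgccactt
F2rl2: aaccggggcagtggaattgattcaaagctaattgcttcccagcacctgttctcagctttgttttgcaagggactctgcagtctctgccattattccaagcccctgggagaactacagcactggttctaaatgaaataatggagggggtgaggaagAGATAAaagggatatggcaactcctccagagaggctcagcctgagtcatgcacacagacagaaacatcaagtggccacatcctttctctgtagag
Tal1: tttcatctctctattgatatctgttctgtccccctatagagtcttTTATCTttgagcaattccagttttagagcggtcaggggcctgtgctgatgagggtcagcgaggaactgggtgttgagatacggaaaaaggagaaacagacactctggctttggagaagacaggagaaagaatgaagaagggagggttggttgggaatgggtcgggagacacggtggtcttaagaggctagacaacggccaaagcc
Atp2b4: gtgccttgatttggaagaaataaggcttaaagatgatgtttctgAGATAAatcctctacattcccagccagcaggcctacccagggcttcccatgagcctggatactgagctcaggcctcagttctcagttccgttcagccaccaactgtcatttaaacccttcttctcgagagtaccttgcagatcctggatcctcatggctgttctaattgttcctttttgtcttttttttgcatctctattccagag
Spns2: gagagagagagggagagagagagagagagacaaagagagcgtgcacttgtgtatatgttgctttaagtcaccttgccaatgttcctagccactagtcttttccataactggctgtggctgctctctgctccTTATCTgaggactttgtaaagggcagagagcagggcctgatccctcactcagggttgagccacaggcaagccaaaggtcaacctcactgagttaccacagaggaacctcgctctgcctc
Calca: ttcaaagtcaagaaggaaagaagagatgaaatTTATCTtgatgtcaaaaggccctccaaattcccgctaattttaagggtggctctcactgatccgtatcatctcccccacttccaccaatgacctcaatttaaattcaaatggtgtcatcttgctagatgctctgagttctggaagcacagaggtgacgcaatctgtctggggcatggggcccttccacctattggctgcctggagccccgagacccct
Gzmb: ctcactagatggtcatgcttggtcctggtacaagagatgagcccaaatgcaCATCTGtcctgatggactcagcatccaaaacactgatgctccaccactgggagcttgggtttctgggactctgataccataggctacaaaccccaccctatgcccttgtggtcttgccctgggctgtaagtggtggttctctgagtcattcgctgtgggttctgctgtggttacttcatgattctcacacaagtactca

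The 8 windows hold 1 match each except that of Epor, which has both an E-box and a GATA match. The share of windows with a match was as follows, with no test of the differences. CAGATG was found in 10% of 2680 windows of called lower genes, 10.5% of 2334 windows of called higher genes and 10.1% of 8501 windows of genes tested and not called, against 14.4% of all 32851 windows. AGATAA was found in 6.04%, 5.87% and 6.19% of the same sets and in 9.99% of all windows. The windows covered 2011 of the called lower genes and 1840 of the called higher genes, matched by symbol. These 2 motifs share no overlap in the windows shown, and a match is a description of letters, not of binding.

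Genes for platelet adhesion had the highest share of members called lower among the lists with at least 10 members tested. Of 24 platelet adhesion receptors and integrins tested, 21 were called lower and 0 higher, with a median log2 fold change of -1.42 against 0.04 over all genes. F11r, a junctional adhesion molecule of platelets, was at 286, 328 and 272 CPM in the wild-type libraries against 134, 109 and 96.4 CPM in the double KO libraries. The groups stood well apart, and F11r fell by 1.39 ± 0.13 (adjusted p = 1.65e-05). Itga2, the alpha chain of a collagen receptor, was at 422, 473 and 384 CPM against 100, 53 and 36.7 CPM. Its change of -2.75 ± 0.31 (adjusted p = 4.77e-05) left 14.9% of the wild-type level. Gp1bb, a subunit of the von Willebrand factor receptor, was at 646, 728 and 774 CPM against 291, 188 and 151 CPM, a change of -1.77 ± 0.21 (adjusted p = 5.59e-05). Pecam1, an adhesion molecule shared by platelets and vessel lining, went from 781, 796 and 625 CPM to 260, 231 and 167 CPM, a change of -1.74 ± 0.20 (adjusted p = 4.98e-05).

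Transcripts of both chains of the fibrinogen receptor fell. Itga2b, the alpha chain and a defining marker of megakaryocytes, was at 7403, 7908 and 7367 CPM in the wild-type libraries against 4760, 3839 and 2885 CPM in the double KO libraries. It fell by 0.98 ± 0.18 (adjusted p = 0.00152), and Itgb3, its beta chain, fell by 0.93 ± 0.21 (13326, 14808 and 13103 CPM against 9155, 7247 and 5279 CPM, adjusted p = 0.00451). Every double KO library was under every wild-type library for both chains. The summed level of the adhesion list was 44397, 48657 and 42459 CPM in the wild-type libraries against 28543, 23033 and 16275 CPM in the double KO libraries, with double KO 3 lowest.

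Among proteins stored in platelet alpha granules, 17 of 24 genes were called lower and 0 higher (median -1.33). Thbs1 (ENSMUSG00000040152, chromosome 2, 118111876 to 118127133), which encodes thrombospondin, was at 19623, 21389 and 18232 CPM in the wild-type libraries against 412, 432 and 378 CPM in the double KO libraries. The gene with the most counts in wild type was thus at 2.06% of its level, with little spread in either group, and it fell by 5.60 ± 0.24 (adjusted p = 6.55e-08). F5, coagulation factor V, was at 4692, 5319 and 4383 CPM against 879, 581 and 436 CPM, a change of -2.93 ± 0.32 (adjusted p = 3.34e-05). Pdgfb, a platelet growth factor for connective tissue cells, was at 118, 123 and 105 CPM against 17, 14 and 12.6 CPM, a change of -2.99 ± 0.18 (adjusted p = 5.58e-07).

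Transcripts of chemokines and adhesive proteins of the granules were lower as well. Pf4, platelet factor 4, was at 3727, 4230 and 4934 CPM against 2542, 2047 and 2015 CPM and fell by 0.96 ± 0.15 (adjusted p = 0.000376). Ppbp, the precursor of another platelet chemokine, was at 17527, 19875 and 15678 CPM against 8690, 4324 and 2782 CPM, a change of -1.75 ± 0.34 (adjusted p = 0.00208). Vwf, the von Willebrand factor, was at 5995, 6424 and 6239 CPM against 3351, 2542 and 1403 CPM and fell by 1.35 ± 0.27 (adjusted p = 0.00238). Double KO 1 was the highest and double KO 3 the lowest of the double KO libraries for Ppbp and Vwf, as for Itga2b, Itgb3 and Itga2, and no double KO library reached the wild-type range.

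Genes that build and release granules were called in both directions. Of 27 genes for granule formation and secretion, 7 were called lower, 3 higher and 17 not called, with a median of 0.07. Among all genes tested, 18.1% were called lower and 16.4% higher. Rab27b, a small GTPase of granule release, was at 2204, 2953 and 2311 CPM against 1186, 1002 and 845 CPM and fell by 1.30 ± 0.16 (adjusted p = 7.89e-05). Rab38, a GTPase of lysosome-related organelles, rose from 25.4, 35.3 and 52.1 CPM to 97.6, 181 and 204 CPM, by 2.10 ± 0.33 (adjusted p = 0.000478). Slc18a2, which loads serotonin into dense granules, rose from 219, 289 and 292 CPM to 448, 629 and 628 CPM, by 1.09 ± 0.18 (adjusted p = 0.000619). The other gene called higher was Rab27a, and 5 were called higher without double KO 3.

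Receptors for soluble platelet agonists were mixed, with 7 of 14 called lower and 1 higher (median -0.58). P2ry12 (ENSMUSG00000036353, chromosome 3, 59216272 to 59262871), the ADP receptor that antiplatelet drugs block, was at 167, 181 and 98 CPM in the wild-type libraries against 8.17, 4.32 and 2.12 CPM in the double KO libraries. It was at 3.28% of the wild-type level, a change of -4.93 ± 0.50 (adjusted p = 2.24e-05). F2rl2, a cofactor receptor for thrombin, was at 1662, 1895 and 1768 CPM against 477, 305 and 265 CPM (a change of -2.35 ± 0.20, adjusted p = 7.08e-06), whereas F2rl3, the thrombin receptor it serves in mouse platelets, fell by 1.14 ± 0.18 (adjusted p = 0.000566). Adra2a, an adrenaline receptor, went from 29.6, 29.2 and 28.9 CPM to 3.38, 2.49 and 5.81 CPM, a change of -2.91 ± 0.24 (adjusted p = 5.33e-06). The exception was Ptger3, a prostaglandin E receptor, which rose from 54.2, 78.1 and 102 CPM to 289, 255 and 239 CPM (1.74 ± 0.19, adjusted p = 3.14e-05).

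Genes for the cytoskeleton of megakaryocytes and of the extensions that form platelets fell broadly. Of 30 genes, 21 were called lower and 0 higher (median -0.81). Tubb1, the beta-tubulin of the platelet marginal band, was at 2470, 2247 and 1369 CPM in the wild-type libraries against 132, 43 and 17.7 CPM in the double KO libraries. A megakaryocyte marker singled out after its values were seen, it fell by 4.98 ± 0.66 (adjusted p = 0.000144), and double KO 1 was highest in its group. Tuba4a, an alpha-tubulin, was at 4051, 4203 and 3398 CPM against 841, 338 and 400 CPM, a change of -2.88 ± 0.32 (adjusted p = 4.17e-05). Was, the Wiskott-Aldrich syndrome protein that starts actin branches, was at 393, 438 and 378 CPM against 165, 114 and 112 CPM (a change of -1.63 ± 0.18, adjusted p = 4.17e-05). Wipf1, its binding partner, fell by 1.07 ± 0.11 (adjusted p = 2.81e-05).

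Transcripts of genes for signalling from receptors to integrins were lower at several steps. Of 14 genes for integrin activation, 11 were called lower and 0 higher (median -1.07). Fermt3, the kindlin of blood cells, was at 3417, 3613 and 3106 CPM against 1591, 1031 and 899 CPM and fell by 1.53 ± 0.22 (adjusted p = 0.000259). Tln1, the talin that opens integrins, was at 8520, 8906 and 8331 CPM against 4686, 3948 and 3703 CPM and fell by 1.06 ± 0.16 (adjusted p = 0.000301). Of 23 genes that signal from collagen receptors through ITAM motifs, 14 were called lower and 2 higher (median -0.82). The Src-family kinase Fyn was at 291, 315 and 261 CPM against 82, 79.5 and 83.1 CPM, a change of -1.82 ± 0.12 (adjusted p = 8.32e-07). Sh2b3, an adaptor that restrains the thrombopoietin signal, went from 473, 463 and 316 CPM to 87.8, 71 and 57.6 CPM, a change of -2.53 ± 0.23 (adjusted p = 9.81e-06).

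Genes for lipid mediators and calcium moved in both directions. Alox12, the platelet 12-lipoxygenase, was at 3517, 3501 and 2883 CPM against 707, 259 and 94.5 CPM, a change of -3.22 ± 0.58 (adjusted p = 0.0012). Alox5, which starts leukotriene synthesis, rose from 236, 287 and 358 CPM to 920, 1123 and 993 CPM (1.79 ± 0.17, adjusted p = 1.71e-05). Mfsd2b, the exporter of sphingosine phosphate in red cells and platelets, fell from 1321, 1444 and 1194 CPM to 649, 407 and 309 CPM (-1.54 ± 0.23, adjusted p = 0.000352). Spns2, the exporter known from vessel lining, rose from 11.4, 13.8 and 20.5 CPM to 86.5, 96.3 and 123 CPM (2.74 ± 0.32, adjusted p = 6e-05). Atp2b4, a plasma membrane calcium pump, rose from 7.54, 5.93 and 11.4 CPM to 95.5, 70.3 and 140 CPM (3.61 ± 0.34, adjusted p = 1.35e-05). Over these lists, 5 of 13 eicosanoid genes were called lower and 2 higher, 7 of 23 sphingolipid genes lower and 5 higher, and 4 of 14 calcium genes lower and 3 higher. The shares over all genes tested were 18.1% lower and 16.4% higher. Without wild type 1, or without wild type 2, the number of sphingolipid genes called lower was 4, and it was 3 in the 9 libraries of the series with Xist RNA.

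**Figure D2:**
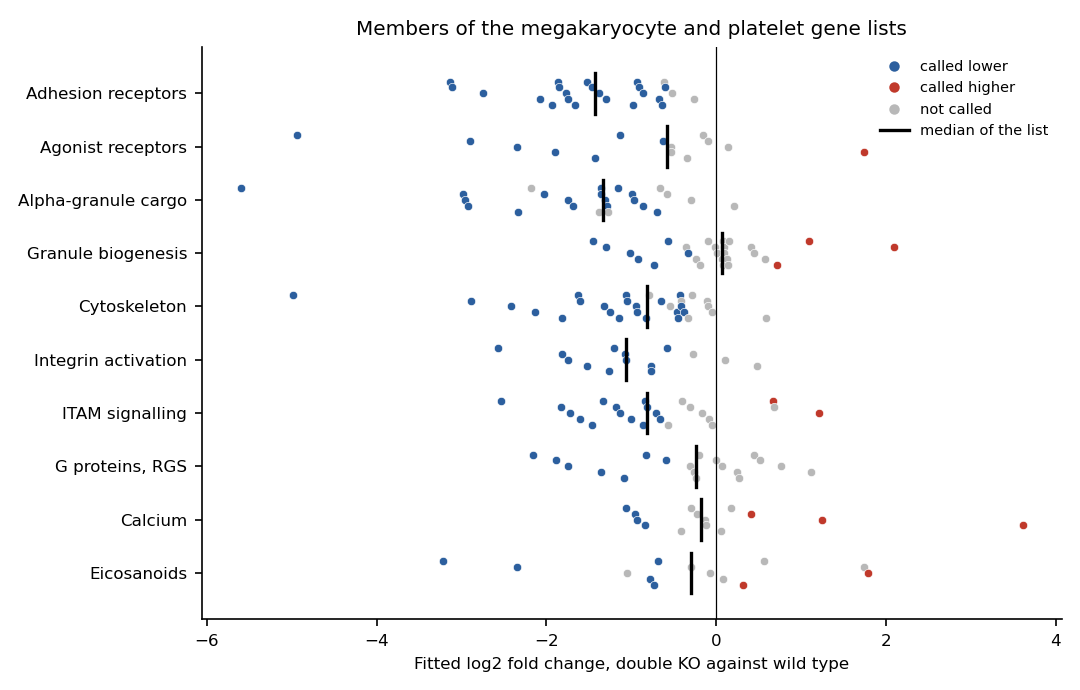
Fitted log2 fold change in the double KO against wild type (horizontal axis) for the tested members (points) of 10 gene lists of megakaryocyte and platelet function, with called lower genes in blue, called higher genes in red, others in grey and the median of each list as a black bar. Adhesion receptors (median -1.42), alpha-granule cargo (-1.33) and integrin activation (-1.07) lie to the left, and granule biogenesis (0.07) is centred near 0.

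Among the partners of Scl in its DNA-bound complex, 6 of 20 genes were called lower, the targeted Tal1 and Lyl1 among them, and 6 higher. Gata1 (ENSMUSG00000031162, chromosome X, 7959260 to 7978071), the main GATA factor of red cells and megakaryocytes, was at 585, 609 and 517 CPM against 234, 132 and 107 CPM and fell by 1.86 ± 0.26 (adjusted p = 0.000184). Gata2, the GATA factor of stem and progenitor cells, was at 85.2, 80.4 and 74.2 CPM against 13.3, 25.6 and 24.2 CPM and fell by 1.93 ± 0.27 (adjusted p = 0.000188). These 2 GATA factors were at 27.6% and 26.3% of wild type, and neither group overlapped the other. Cbfa2t3, a corepressor known as Eto2, was at 169, 167 and 151 CPM against 28.8, 46.8 and 22.9 CPM (a change of -2.30 ± 0.21, adjusted p = 1e-05).

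Lmo2, the bridging protein of the complex, went the other way. It rose from 170, 184 and 212 CPM to 549, 462 and 436 CPM, by 1.35 ± 0.12 (adjusted p = 6.58e-06). Ssbp2, which stabilises the Lmo2 partner Ldb1, rose from 24.4, 29.2 and 33.3 CPM to 61.6, 56.3 and 60.5 CPM (1.04 ± 0.12, adjusted p = 4.08e-05). Ldb1 itself was at a mean of 125 CPM in the wild-type libraries against 124 CPM in the double KO libraries and was not called. The other 4 called higher were the E proteins Tcf3 and Tcf12 and the Eto-family members Cbfa2t2 and Runx1t1, named after their values were seen. Without wild type 2, 3 rather than 6 members were called higher.

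Of 39 transcription factors of megakaryocytes and progenitors, 14 were called lower and 7 higher (median -0.27). Nfe2, which drives platelet release, was at 906, 973 and 739 CPM against 286, 263 and 135 CPM, a change of -1.94 ± 0.28 (adjusted p = 0.000251). Fli1, an Ets factor of megakaryocytes, fell by 1.19 ± 0.18 (293, 335 and 289 CPM against 164, 136 and 103 CPM, adjusted p = 0.000319). Hhex, a homeobox gene active in precursors of blood and endothelium, went from 45.3, 51.8 and 42.1 CPM to 5.19, 10.2 and 7.8 CPM, a change of -2.58 ± 0.20 (adjusted p = 3.28e-06). Other well-known genes were not called: Runx1 had a log2 change of 0.31 ± 0.13 (adjusted p = 0.0845) and Gfi1b -0.36 ± 0.23 (adjusted p = 0.246). Gfi1b was called lower in the 9 libraries with Xist RNA (-1.01, adjusted p = 0.0235) and was at -0.13 without double KO 3 (adjusted p = 0.61). Runx1 was called higher without wild type 3 (0.42, adjusted p = 0.0305) or without double KO 3 (0.40, adjusted p = 0.0375).

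Both paralogues of Runx1 rose. Runx3 (ENSMUSG00000070691, chromosome 4, 135120652 to 135177990), a Runt factor best known from T cells, was at 11.2, 9.41 and 18.3 CPM in the wild-type libraries against 154, 315 and 206 CPM in the double KO libraries. It rose by 4.11 ± 0.37 (adjusted p = 9.39e-06), and Runx2, the Runt factor of bone, rose by 3.18 ± 0.26 (5.5, 3.7 and 3.97 CPM against 25.3, 50.1 and 43.8 CPM, adjusted p = 4.7e-06). Sp7, a zinc-finger factor that acts after Runx2 in bone formation, was at 0.0416, 0.392 and 0.365 CPM against 52.2, 94 and 57.6 CPM (7.96 ± 0.44, adjusted p = 3.96e-07). Wild-type libraries held 20 counts of Sp7 in all, and the double KO libraries 6237.

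Among cytokine receptors and stem cell genes more members were called lower than higher, beside 18.1% lower and 16.4% higher over all genes tested. Epor was at 142, 149 and 126 CPM against 37.9, 22.1 and 15.8 CPM and fell by 2.46 ± 0.28 (adjusted p = 4.77e-05). Il6ra, the interleukin-6 receptor, fell by 1.92 ± 0.12 (86.6, 89.9 and 94.2 CPM against 27.9, 21.7 and 21.9 CPM, adjusted p = 7.09e-07). Cish, a feedback inhibitor of cytokine signals that Stat5 induces, rose from 4.41, 6.1 and 11.6 CPM to 36.7, 33.1 and 54.5 CPM (2.49 ± 0.32, adjusted p = 0.000122), while Stat5b fell by 1.54 ± 0.23 (adjusted p = 0.000366). Slamf1, the CD150 antigen used to isolate stem cells, was at 724, 815 and 627 CPM against 79.1, 31.9 and 19 CPM (a change of -4.06 ± 0.44, adjusted p = 3.56e-05). The lists held 8 of 29 cytokine receptor and signalling genes called lower and 2 higher, and 8 of 23 stem and progenitor genes called lower and 2 higher. Kit, the stem cell factor receptor, was at 8.45, 6.41 and 4.08 CPM against 5.26, 7.14 and 16.6 CPM and was not called (0.62 ± 0.38, adjusted p = 0.234), and its direction turned without double KO 3 (-0.037, adjusted p = 0.938). In the 9 libraries with Xist RNA, where double KO 3 is the only double KO library, Kit was called higher (1.40, adjusted p = 0.0177).

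Red cell surface and membrane skeleton genes had 13 of 22 members called lower and 0 higher (median -1.15). Tmcc2 (ENSMUSG00000042066, chromosome 1, 132356315 to 132391281) was at 117, 124 and 94.3 CPM in the wild-type libraries against 1.41, 0.797 and 1.09 CPM in the double KO libraries. Under 1% of its level (0.984%) remained, and its change of -6.66 ± 0.19 had an adjusted p of 3.65e-09. Sptb, a spectrin of the red cell skeleton, was at 388, 447 and 432 CPM against 73.3, 60.1 and 46.8 CPM, a change of -2.81 ± 0.18 (adjusted p = 1.05e-06). Cd59a, an inhibitor of complement lysis, fell by 4.32 ± 0.18 (51.7, 75.5 and 74.3 CPM against 3.42, 3.55 and 3.09 CPM, adjusted p = 6.55e-08).

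Of 8 globin genes tested, 3 were called lower and 1 higher, and 6 were called lower and 0 higher in the 9 libraries of the series with Xist RNA. The gene called higher was Hbb-bh1, an embryonic globin at 0.291, 0.305 and 0.583 CPM against 2.41, 0.896 and 0.749 CPM (1.76 ± 0.57, adjusted p = 0.0333). It was not called without wild type 1 (adjusted p = 0.109), without wild type 2 (0.105), without double KO 1 (0.184) or in the Xist libraries (0.432). Hba-a1, an adult alpha globin, was at 242, 205 and 152 CPM in the wild-type libraries against 0.536, 1.2 and 0.375 CPM in the double KO libraries, a change of -8.15 ± 0.47 (adjusted p = 4.81e-07). Its near-identical copy Hba-a2 fell as well (793 counts against 8, adjusted p = 2.53e-05). Per the file headers, reads that mapped to both copies were not counted, so the level of each copy is uncertain. Of the beta-type globins, Hbb-bt was at 234, 238 and 215 CPM against 181, 108 and 15 CPM and was not called (-1.18 ± 0.69, adjusted p = 0.212). The embryonic globin Hbb-y was at 36.1, 36 and 60.5 CPM against 74.8, 66.3 and 9.64 CPM and was not called either (0.18 ± 0.59, adjusted p = 0.841). Hbb-bt was picked out after its values were seen, and double KO 3 was the lowest library for both. In the 9 libraries of the series with Xist RNA, where double KO 3 stands alone for its group and is assumed to vary like the others, Hbb-y had a log2 change of -2.20 (adjusted p = 0.0533).

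Heme and iron genes changed in both directions, 7 of 25 lower and 5 higher, beside 18.1% and 16.4% of all genes tested. Flvcr1, a heme exporter, fell by 0.98 ± 0.09 (52.9, 51.8 and 55.2 CPM against 26.6, 26.7 and 27.7 CPM, adjusted p = 1.49e-05), and Urod, which acts late in heme synthesis, fell by 0.94 ± 0.11 (adjusted p = 5.92e-05). Slc48a1, which moves heme out of lysosomes, rose from 127, 118 and 151 CPM to 440, 459 and 403 CPM (1.72 ± 0.15, adjusted p = 9.7e-06). Alad, an early enzyme of heme synthesis, rose from 4.04, 3.49 and 5.8 CPM to 15.6, 15.5 and 16.7 CPM (1.84 ± 0.20, adjusted p = 3.73e-05). With only the 9 libraries that held Xist RNA, 5 were called lower and 3 higher.

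**Figure D3:**
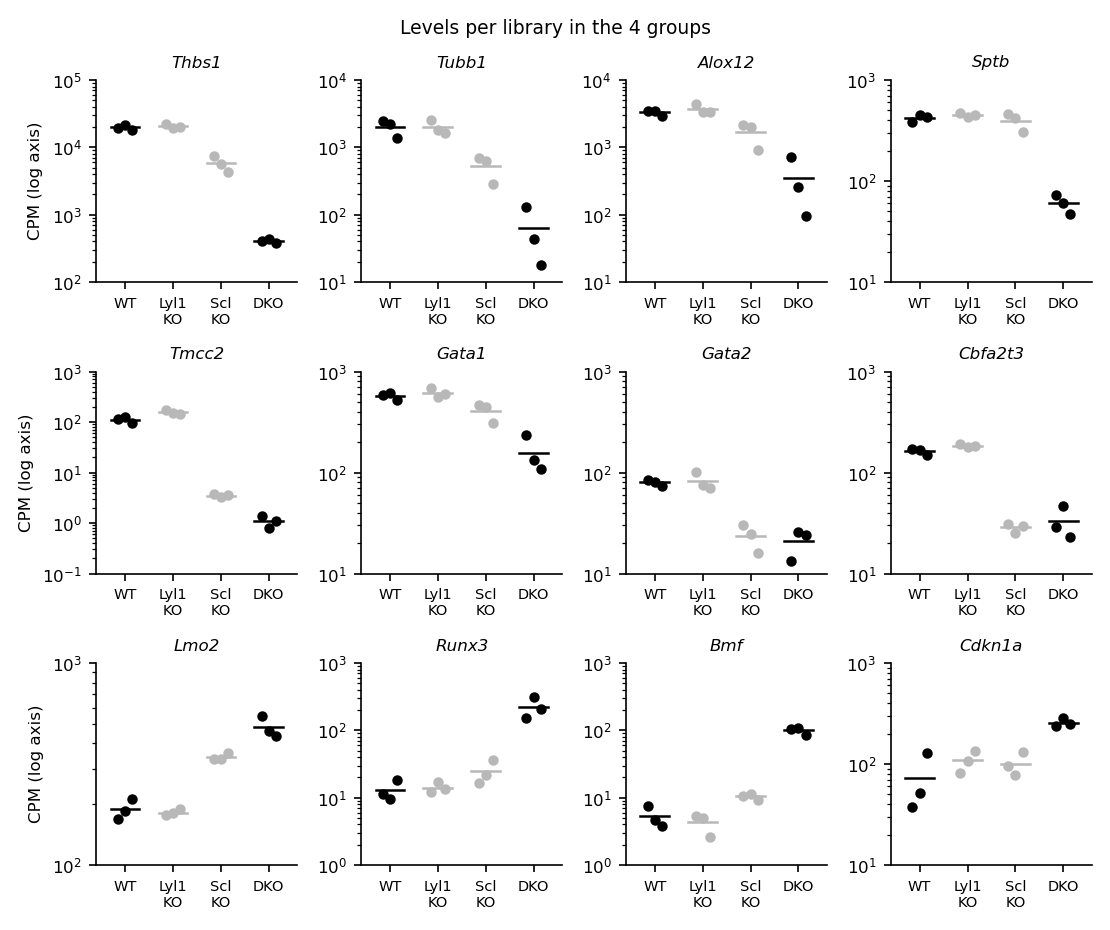
TMM-normalised CPM (vertical log axes, 1 panel per gene) of 12 genes in the 3 libraries of each group (points, replicates 1 to 3 from left to right) with the group mean (bar). Wild type and the double KO are black and the single KOs grey. Thbs1, Tubb1, Sptb and Gata1 were lowest in the double KO, Cbfa2t3 and Gata2 overlapped between Scl KO and the double KO, and Lmo2, Runx3, Bmf and Cdkn1a were highest in the double KO.

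Survival genes of the Bcl2 family were called in both directions, 6 of 24 lower and 6 higher, beside 18.1% and 16.4% of all genes tested. Bmf (ENSMUSG00000040093, chromosome 2, 118528757 to 118549687), which promotes cell death, was at 7.62, 4.71 and 3.83 CPM in the wild-type libraries against 106, 108 and 84.7 CPM in the double KO libraries. It rose 18.5-fold in mean level, or 4.21 ± 0.29 on the log2 scale (adjusted p = 1.4e-06). Bcl2, which prevents cell death, rose as well, from 22.6, 25.4 and 30.7 CPM to 111, 95.8 and 111 CPM (2.01 ± 0.13, adjusted p = 1.2e-06). Bcl2l1, whose Bcl-xL protein sets the life span of platelets, fell by 1.48 ± 0.13 (329, 326 and 314 CPM against 138, 111 and 99.6 CPM, adjusted p = 9.78e-06). Without wild type 1, without double KO 1 or in the 9 libraries with Xist RNA, 3 rather than 6 of these genes were called lower.

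Of 16 cyclins and cell cycle inhibitors, 4 were called higher and 2 lower (median 0.04), with 5 lower without double KO 3. Rb1, the retinoblastoma protein that holds back the cycle, fell by 0.80 (adjusted p = 0.000522). Cdkn1a, the p21 inhibitor, was at 37.9, 51.2 and 127 CPM against 240, 283 and 250 CPM and rose by 1.83 ± 0.38 (adjusted p = 0.00291). Cdkn2a, which encodes p16 and p19Arf, rose from 0.749, 0.174 and 0.583 CPM to 4.09, 5.68 and 24 CPM (4.46 ± 0.81, adjusted p = 0.00123), with double KO 3 far above the other two. Of 25 p53 targets, p21 included, 4 were called higher and 3 lower (median 0.07), beside 16.4% and 18.1% of all genes tested. Fas, a death receptor, rose by 1.18 ± 0.15 (adjusted p = 0.000109), and Mdm2, the inhibitor of p53, fell by 0.78 ± 0.12 (adjusted p = 0.000417). Of 30 DNA replication genes 2 were called higher and 0 lower, with 0 called higher without wild type 1, without wild type 2 or without double KO 3. With the replicate number as a block, 4 were called higher and 2 lower. The median of this list ranged from -0.25 to 0.61 over the alternatives. Of 30 mitosis genes 1 was called lower and 0 higher, with 3 lower without double KO 3, where the list's median was -0.35. Under other alternatives the median of the mitosis list reached up to 0.62. Incenp, a centromere protein, was the gene called with all libraries (a change of -0.77 ± 0.13, adjusted p = 0.000892). Proliferation genes varied within the groups: their mitotic sum was 702, 759 and 1262 CPM in the wild-type libraries against 647, 732 and 1331 CPM in the double KO libraries, with replicate 3 highest in both.

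The 12 largest falls held genes best known from other tissues. Rxrg, a retinoid receptor, had 485 counts in the wild-type libraries and 1 in the double KO libraries (8.04, 7.63 and 4.27 CPM against 0, 0 and 0.0312 CPM, adjusted p = 8.71e-06). Mest, an imprinted gene of the mesoderm, was at 381, 297 and 198 CPM against 4.02, 1.03 and 1.34 CPM and fell by 7.10 ± 0.67 (adjusted p = 1.38e-05). Nefh, a neurofilament subunit, was at 37, 33.6 and 30.9 CPM against 0.268, 0.299 and 0.218 CPM, a change of -6.99 ± 0.33 (adjusted p = 1.12e-07). Acer2, a ceramidase of the Golgi, was at 109, 83.5 and 51.2 CPM against 1.34, 0.996 and 0.499 CPM, a change of -6.43 ± 0.46 (adjusted p = 1.8e-06). Jhy and Cfap97d2 also fell (adjusted p = 8.4e-07 and 5.69e-05). For each gene named in this paragraph every wild-type library was above every double KO library.

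Another of these falls did not follow genotype across the series. Olfr552, an olfactory receptor gene, was at 16.2, 17.6 and 15.1 CPM in the wild-type libraries against 0, 0.232 and 0.156 CPM in the double KO libraries (adjusted p = 0.00618, and 0.152 in the 9 libraries with Xist RNA). In Scl KO it was at 0.0387, 22 and 0.595 CPM, so that a single Scl KO library held the wild-type level and the other two did not, and in Lyl1 KO its mean was 0.201 CPM. Rag1, the recombinase of lymphocytes, which is among the lymphoid markers, had 124 counts in wild type and 0 in the double KO (2.71, 1.96 and 0.51 CPM against 0). The double KO level was at least 52.9-fold lower, with 3 counts over the group as the limit that a count of 0 allows (adjusted p = 0.00172).

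The 12 largest rises held genes that were near silent in wild type. Calca (ENSMUSG00000030669, chromosome 7, 114631478 to 114636357), the gene of calcitonin and of the peptide CGRP, was at 0.0416, 0.0436 and 0.0729 CPM in the wild-type libraries against 152, 141 and 412 CPM in the double KO libraries. It rose by 11.98 ± 0.81 (adjusted p = 1.27e-06). Adm, the related hormone adrenomedullin, rose from 0.5, 0.654 and 0.255 CPM to 4.25, 6.87 and 17.8 CPM (4.36 ± 0.66, adjusted p = 0.000372). Npy2r, a neuropeptide Y receptor, was at 0.291, 0.305 and 0.62 CPM against 247, 195 and 66.3 CPM (8.66 ± 0.66, adjusted p = 3.06e-06). Artn, a growth factor of the GDNF family, was at 0.416, 0 and 0.182 CPM against 29.7, 26.5 and 35.2 CPM (7.21 ± 0.56, adjusted p = 3.41e-06), and Car8, a carbonic anhydrase-related protein, rose as well (adjusted p = 2.12e-06). Igsf5, an immunoglobulin-family adhesion protein, had 0 counts in wild type and 14.1, 8.57 and 36.5 CPM in the double KO, at least 489-fold higher with 3 counts over the wild-type group as its limit (adjusted p = 0.000438).

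Granzymes, the proteases of cytotoxic lymphocytes, were among these rises. Gzmb (ENSMUSG00000015437, chromosome 14, 56258856 to 56262260) was at 0, 0.0436 and 0.693 CPM in the wild-type libraries against 159, 104 and 540 CPM in the double KO libraries (9.95 ± 0.93, adjusted p = 1.23e-05). Its neighbour Gzmc (chromosome 14, 56231401 to 56234656) had 3 counts in wild type and 18207 in the double KO (adjusted p = 1.34e-06). The 2 genes are similar in sequence, and reads that mapped to both were not counted, so the level of each is uncertain. Of 27 lymphoid and cytotoxic genes listed, 15 had too few counts to test, 3 were called higher and 3 lower. The number called lower was 1 without wild type 1, without double KO 2 or without double KO 3, and 6 without wild type 3. The T-cell and natural killer genes Cd3e and Ncr1 had 21 and 7 counts over the 6 libraries and were picked out after their values were seen.

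**Figure D4:**
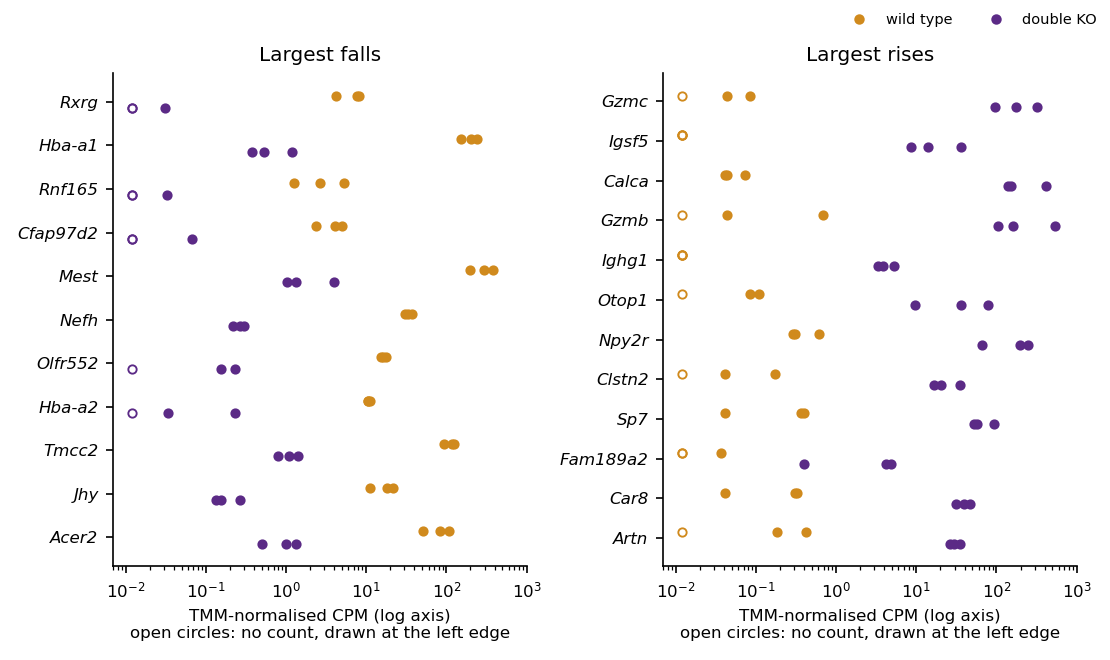
TMM-normalised CPM (horizontal log axes) of 11 genes among the largest falls (left) and the 12 with the largest rises (right) in the 3 wild-type libraries (orange) and the 3 double KO libraries (purple), with open circles at the left edge for libraries without a count. The groups do not overlap for any of the 23 genes, which was a condition of their choice.

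Extracellular matrix genes held both large falls and large rises. Of 36 tested, 17 were called lower and 4 higher (median -1.98). Col18a1, the collagen that releases endostatin, was at 178, 144 and 158 CPM in the wild-type libraries against 1199, 1215 and 1299 CPM in the double KO libraries and rose by 2.95 ± 0.13 (adjusted p = 7.41e-08). Fbn2, a fibrillin of embryonic matrix, rose from 1.17, 1.13 and 1.31 CPM to 44.8, 73.5 and 67.6 CPM (5.68 ± 0.47, adjusted p = 5.16e-06). Vcan, the proteoglycan versican, was at 9.62, 13.6 and 9.77 CPM against 127, 203 and 618 CPM (4.85 ± 0.63, adjusted p = 0.000121). Lamc1, a laminin chain, fell by 1.75 ± 0.17 (189, 196 and 158 CPM against 58.6, 48.9 and 54.3 CPM, adjusted p = 2.05e-05). The count of matrix genes called lower rested on single libraries: it was 17 with all libraries, 8 without wild type 1, 6 without wild type 2, 5 without double KO 1, 6 without double KO 3, and 4 in the 9 libraries with Xist RNA. Markers of fibroblasts moved with it, since 5 of 15 were called lower and 1 higher, and their sum was 177, 201 and 173 CPM in the wild-type libraries against 58.5, 105 and 129 CPM in the double KO libraries. Of these markers 1 was called lower without wild type 1, without double KO 1 or without double KO 3, and 2 without wild type 2. The part of these cells in the matrix counts was not tested.

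Of 14 imprinted genes, 3 were called higher and 2 lower, a count near the 16.4% and 18.1% over all genes tested. Peg10 (chromosome 6, 4747306 to 4760517), expressed from the paternal copy, rose from 57.7, 71.3 and 89.4 CPM to 671, 798 and 986 CPM (3.49 ± 0.23, adjusted p = 1.09e-06). Grb10, an adaptor that restrains growth factor signals, rose from 15.9, 16.1 and 14.8 CPM to 125, 170 and 367 CPM (3.82 ± 0.34, adjusted p = 9.78e-06). Mest, on the same chromosome as Peg10, was among the largest falls above. Gnas, which encodes a stimulatory G protein, fell by 0.91 ± 0.14 (2172, 2242 and 2066 CPM against 1309, 1074 and 1062 CPM, adjusted p = 0.000351).

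Glucose use and stress genes had members in both directions, as had all genes tested, with 18.1% called lower and 16.4% higher. Slc2a3, the glucose transporter of platelets, was at 4205, 4422 and 3448 CPM against 1516, 1229 and 967 CPM and fell by 1.70 ± 0.23 (adjusted p = 0.000167). Ndrg1, a gene induced by low oxygen, fell by 2.02 ± 0.23 (adjusted p = 4.75e-05), while Vegfa, the vessel growth factor, rose by 1.36 ± 0.17 (41.7, 29.2 and 31.5 CPM against 84, 109 and 69.4 CPM, adjusted p = 0.000113). Of 28 glycolysis and hypoxia genes, 7 were called lower and 6 higher. Ddit3 and Atf5, factors of the integrated stress response, fell by 1.57 ± 0.19 and 1.30 ± 0.13 (adjusted p = 7.71e-05 and 2.62e-05), and Ddit4, an inhibitor of mTOR, rose by 2.25 ± 0.33 (adjusted p = 0.000268). Of 31 stress genes 7 were called lower and 2 higher, with 4 lower without double KO 2 11 lower without double KO 3 and 3 lower in the 9 libraries with Xist RNA. Of 23 cholesterol genes, 10 were called lower and 1 higher (median -0.39), the exception being Insig1, a brake on sterol synthesis (1.80 ± 0.33, adjusted p = 0.00124), and 5 were called lower in the 9 libraries with Xist RNA.

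Interferon-induced genes were called lower for 15 of 32 members and higher for 1 (median -0.88). Ifit1, an antiviral RNA-binding protein, was at 14.6, 8.24 and 12.1 CPM against 2.31, 1.56 and 1.4 CPM and fell by 2.73 ± 0.34 (adjusted p = 9.71e-05). Isg15, a ubiquitin-like protein, fell by 2.24 ± 0.33 (7.41, 6.41 and 13.3 CPM against 1.61, 2.22 and 1.94 CPM, adjusted p = 0.000283). In the 9 libraries with Xist RNA 5 members were called lower. Antigen presentation genes were called in both directions, 5 of 21 higher and 2 lower (median 0.13), beside 16.4% and 18.1% of all genes tested. Of these genes, Tap2, a peptide transporter, rose by 1.45 ± 0.16 (191, 220 and 278 CPM against 694, 698 and 495 CPM, adjusted p = 3.78e-05), whereas B2m, the light chain of MHC class I, fell by 0.52 ± 0.12 (adjusted p = 0.00547). Without wild type 2, or without double KO 2, 3 were called higher, and 2 in the 9 libraries with Xist RNA.

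Markers of other cells varied between libraries of a group. Of 33 macrophage genes, 8 were called lower and 0 higher (median -0.64), and their sum was 24503, 13699 and 14347 CPM in the wild-type libraries against 10323, 11760 and 14566 CPM in the double KO libraries. Wild type 1 was highest, the ranges overlapped, and the count of genes called lower fell to 0 when wild type 1 was left out and to 0 in the 9 libraries with Xist RNA. It was 5 without wild type 2 and 17 when wild type 3 was left out, and 2 and 3 without double KO 1 and double KO 2. Of 37 endothelial genes, 14 were called lower and 4 higher (median -1.51), but Cdh5, the cadherin of vessel lining, was at 14.3, 19.7 and 1.46 CPM in the wild-type libraries against 1.54, 2.56 and 1.5 CPM in the double KO libraries. Wild type 3 thus lay with the double KO for this defining marker, and the number of endothelial genes called lower was 22 with wild type 3 left out. Leaving out wild type 1 gave 9, wild type 2 gave 5 and double KO 2 gave 9, and there were 8 in the 9 libraries with Xist RNA. Cdh5 was picked out after its values were seen. Stab2, a hyaluronan receptor of sinusoid lining, was among the 4 endothelial genes called higher. It rose from 12.5, 8.5 and 1.35 CPM to 96.6, 61.7 and 77.7 CPM (3.41 ± 0.56, adjusted p = 0.000663). Neutrophil genes summed to 843, 739 and 405 CPM in the wild-type libraries against 961, 1317 and 550 CPM in the double KO libraries, with 1 of 19 called in each direction, and without double KO 3 it was 4 higher and 0 lower. How far these cells contribute to other lists was not tested.

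**Figure D5:**
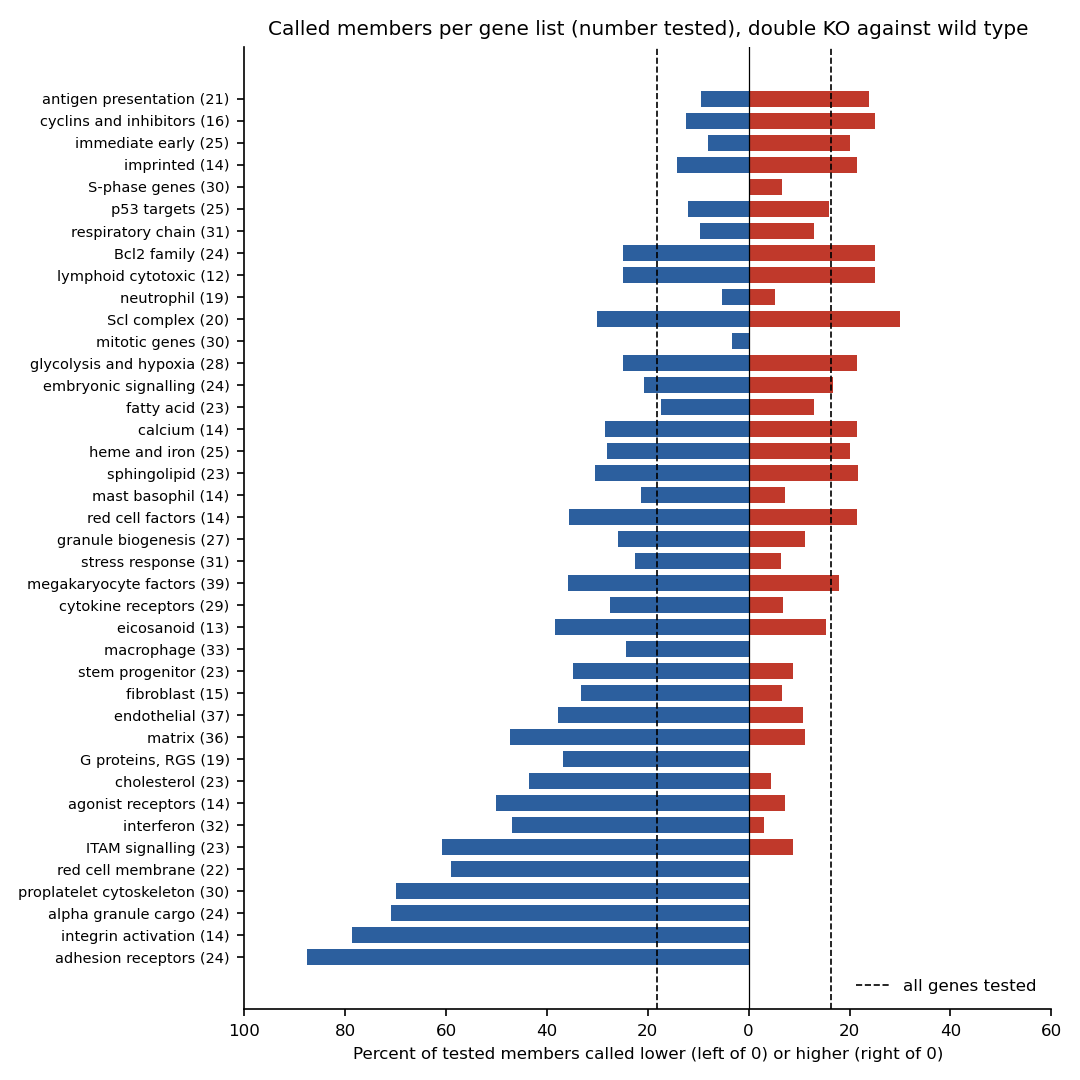
Percent of tested members called lower (blue, left of 0) or higher (red, right of 0) in the double KO against wild type, for each gene list with at least 10 members tested (number tested in brackets), with dashed lines at the shares over all genes tested (18.1% lower, 16.4% higher). Adhesion receptors, integrin activation, alpha-granule cargo and the cytoskeleton of platelet formation lie farthest to the left, and replication and mitosis genes had few calls in either direction.

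To show where the double KO differs from the loss of Scl alone, the 2 groups were compared directly, so this comparison shares its double KO libraries with the one above. It called 2947 genes (19.1% of those tested), 1289 higher (8.37%) and 1658 lower (10.8%) in the double KO. Platelet genes were among them: 19 of 24 adhesion genes and 21 of 30 cytoskeletal genes were called lower in the double KO than in Scl KO, and 0 of either higher. Thbs1 had a mean of 5787 CPM in Scl KO against 407 CPM in the double KO (-3.83 ± 0.22, adjusted p = 4.76e-06). P2ry12 averaged 83.9 CPM in Scl KO beside 4.87 CPM in the double KO (-4.11 ± 0.49, adjusted p = 0.000216).

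Red cell and factor genes that were lower in the double KO than in Scl KO included a spectrin and a GATA factor. Sptb was at 456, 423 and 306 CPM in Scl KO, a mean of 395 CPM, while wild type averaged 422 CPM and the double KO 60.1 CPM (double KO against Scl KO -2.72 ± 0.18, adjusted p = 7.77e-06). Epor (mean of 108 CPM in Scl KO, -2.09 ± 0.28, adjusted p = 0.000415), Gata1 (404 CPM, -1.36 ± 0.25, adjusted p = 0.003) and Slamf1 (373 CPM, -3.11 ± 0.42, adjusted p = 0.00051) were each lower in the double KO.

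For another set of genes the direct difference between the double KO and Scl KO was not called. Gata2 averaged 23.7 CPM in Scl KO beside 21 CPM in the double KO (-0.17 ± 0.26, adjusted p = 0.694), and Cbfa2t3 at 28.6 and 32.8 CPM (0.20 ± 0.20, adjusted p = 0.541). Hhex (-0.38 ± 0.19, adjusted p = 0.205) was likewise not called, nor was Tal1 itself (-0.24 ± 0.14, adjusted p = 0.26). A difference that misses the threshold does not show that the groups are alike.

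Genes that rose were compared in the same way. Runx3 was at 16.4, 21.8 and 35.9 CPM in Scl KO (3.19 ± 0.35 higher in the double KO, adjusted p = 0.00013). Bmf was at 10.6, 11.5 and 9.27 CPM in Scl KO (3.25 ± 0.27 higher, adjusted p = 2.42e-05), and Gzmb at 0.348, 1.11 and 1.71 CPM (7.96 ± 0.80 higher, adjusted p = 6.91e-05). Col18a1 was already high in Scl KO, at 879, 813 and 903 CPM, and was 0.52 ± 0.12 higher in the double KO (adjusted p = 0.0109). Of 32 interferon genes, 3 were called lower than in Scl KO and 2 higher, beside 10.8% and 8.37% of all genes tested, and Ifit1 was among the lower (-2.85 ± 0.34, adjusted p = 0.000247).

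Against Lyl1 KO the double KO had 5422 called genes (35.2%), 2672 higher (17.4%) and 2750 lower (17.9%). Lyl1 itself was at a mean of 87.7 CPM in Lyl1 KO and 84.1 CPM in the double KO and was not called (-0.06, adjusted p = 0.872). Platelet and red cell genes differed here as well: Thbs1 had a mean of 20565 CPM in Lyl1 KO (-5.66, adjusted p = 5.41e-08), Tmcc2 157 CPM (-7.15, adjusted p = 1.9e-09) and Sptb 451 CPM (-2.91, adjusted p = 7.7e-07). Rxrg was at a mean of 1.05 CPM in Lyl1 KO and 1.5 CPM in Scl KO, both under its level in every wild-type library.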

How the data were processed

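The authors deposited raw counts per gene for 12 libraries of 4 groups. Per the file headers, reads were counted with featureCounts against Ensembl release 87 (GRCm38) on the reverse strand, with no option to count reads that map to several places. STAR 2.5.2b and Subread 1.5.2 are named as tools, per the submitters' processing notes. Of 49671 genes, 49326 had a symbol in the reference tables. Genes were kept by edgeR's filterByExpr (minimum count 10, total 15). The 4 groups were fitted together in edgeR 4.0.16 (R 4.3.3) with TMM factors, and contrasts were tested with its quasi-likelihood test and Benjamini-Hochberg adjustment, called at 0.05. The common biological coefficient of variation was 0.234. A count of 0 allows up to 3 counts, which covers counting error only. Alternatives used DESeq2 1.42.0 and limma 3.58.1, other filters, a replicate block, fewer libraries and added terms. The scripts were tested on simulated counts. Named genes were the targets, the 12 largest rises and falls among called genes with at least 1 CPM on average and groups that do not overlap, up to 5 called genes of each list (those with the lowest adjusted p), and a set of known blood genes. The genes and the 51 lists were chosen with earlier results of these data known. Some genes that this rule picks are not reported here.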

Additional observations from a re-analysis of the deposited data

How the results depend on the processing

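In the comparison of the double KO with wild type, the number of called genes ranged from 3596 to 6581 over the 15 alternatives. Leaving out each library in turn gave 3899 (without wild type 2) to 5528 (without wild type 3). With only the 6 libraries compared in the fit, the lower figure was reached, with 1596 genes higher. With the replicate number as a block the fit called 5970 genes. The numbers were not taken to pair the samples, since same-numbered libraries had correlated deviations of -0.00105, 0.167 and 0.267, and not every library correlated best with its own number. In the 9 libraries with Xist RNA, an alternative chosen after seeing the data, 3611 genes were called against wild type, 1493 of them higher, 750 were higher than in Scl KO, and 3419 called against Lyl1 KO, 1328 of them higher. These fits hold a single double KO library, assumed to vary like the other groups. Genes higher in the double KO than in Scl KO numbered 815 to 1316 when single wild-type or double KO libraries were left out. These ends came without double KO 2 and without wild type 3. Such genes numbered 1631 with DESeq2's Wald test and 1694 with the replicate block. They numbered 2034 with a term for the sign of the score on principal component 2. That term, also added after seeing the data, gave the 6581 above. Of 228 named genes, 181 kept their direction and side of the threshold under all 15 alternatives, 13 of them planned. The exceptions in direction were Hbb-y, with log2 changes of -0.263 in limma-voom, -0.226 without double KO 1, -0.073 without double KO 2 and -2.20 with Xist libraries only, and Kit, at -0.037 without double KO 3. Leaving out each library in turn, Hbb-y ranged from -0.226 to 0.66 (without double KO 3) and Kit from -0.037 to 0.92 (without double KO 1), and Kit was at 1.40 with Xist libraries only. The causes were not tested.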
